A study of Mus musculus with 20 samples.

Results

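This comparison set the total ribosome footprints of 2 tagged mouse embryonic stem cell lines side by side, before any ribosome was captured through its tag. It used 4 of the 20 libraries of the series: 2 of the Rpl10a line and 2 of the Rps25 line. Both lines were derived from E14, an established pluripotent cell line, and were kept with leukemia inhibitory factor. The Rpl10a line carried 1 allele of 3xFLAG-Rpl10a and the Rps25 line 1 allele of Rps25-3xFLAG, each at its own genomic locus. All cells received cycloheximide at 100 µg/ml for 1 min before harvest, and no antibody was used for these 4 libraries. There was 1 line per tag, so the tag and the history of the line cannot be told apart, and the labels do not say whether a line was a single clone. Members were the transcripts listed in the tables of both lines, 8090 of the 8505 listed for the Rpl10a line and of the 8779 listed for the Rps25 line.

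Ribosome profiling digests a lysate with RNase and sequences the mRNA fragments that ribosomes shield. The density of these footprints on a transcript reflects both how much mRNA there is and how many ribosomes it carries, and total footprints alone do not separate these. RPL10A (uL1) belongs to the mobile L1 stalk of the large ribosomal subunit, near the exit site for tRNA. RPS25 (eS25) is a small-subunit protein that is known for its role in initiation at some internal ribosome entry sites. The comparison asked how far the translated mRNA pools of the tagged lines differed from the outset, since each capture was to be read against the total of its own line. Transcripts carry UCSC identifiers, of which 0 of 8090 matched the gene names at hand. Levels of the tagged genes, stem cell markers and gene functions were for this reason not analysed here, and identifiers stand in for gene names.

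The authors deposited footprint densities as RPKM (reads per kilobase of transcript, scaled to the reads of the library). Each library summed to between 1082510 and 1125550 RPKM, with a median transcript at 23.7 to 24.5 RPKM, and its 100 most footprinted transcripts held 30.8% to 32.2% of the total. Read depth is unknown, because the values hold no counts. The tables of the lines were made separately, so levels set across them rest on the RPKM scaling. On the shared transcripts the median difference between the lines was 0.02 on the log2(RPKM + 1) scale, on which every difference below is given as Rpl10a line minus Rps25 line.

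One library stood apart from the other 3. The first Rpl10a library differed from the Rps25 libraries with an SD across transcripts of 0.394 and 0.350, while the second Rpl10a library differed from them with 0.297 and 0.300. The 2 Rpl10a libraries differed from each other with an SD of 0.310, and the 2 Rps25 libraries with 0.214. The second Rpl10a library was thus as close to the Rps25 libraries as to its own replicate. Pearson correlations across the 8090 transcripts gave the same order: 0.988 between the Rpl10a libraries, 0.994 between the Rps25 libraries, 0.980 and 0.984 for the first Rpl10a library against the Rps25 line, and 0.989 and 0.988 for the second.

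The footprint profiles of the lines were alike for almost all transcripts. The mean levels of the lines lay within 1.5-fold of each other for 95.9% of transcripts and within 2-fold for 99.3%. The remaining 56 transcripts, or 0.692%, were more than 2-fold apart, 24 of them higher and 32 lower in the Rpl10a line. Of the 100 transcripts with the highest mean density in each line, 88 were common to both lists, and the 2 Rpl10a libraries also shared 88 of their top 100, against 94 for the 2 Rps25 libraries. Among the 10 highest, 7 were common to the lines, as were 7 within the Rpl10a line and 10 within the Rps25 line.

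Differences between the line means nevertheless exceeded what the replicate spread alone would give. The difference between means of 2 libraries had an SD of 0.280 across transcripts, where the replicate spread alone would give 0.188. Its variance was thus 2.21 times the value given by replicate spread. The SD of 0.280 was below the 0.310 between the single Rpl10a libraries and above the 0.214 between the single Rps25 libraries. In 5 equal bins (quintiles) of mean level the ratio was 1.82 in the lowest and 2.48 in the highest bin, which had medians of 6.85 and 210 RPKM. Without the first Rpl10a library the SD of the line difference was 0.279, and without the second it was 0.357. The 0.188 holds for means of 2 libraries per line, and no such value was computed for 1 Rpl10a library. Whether the excess stays without either library was therefore not tested. On the RPKM scale neither line was higher at any level, as the median difference ran from 0.00 to 0.03 over the 5 bins. RPKM is scaled to the reads of each library, so an excess of footprints over all transcripts could not show here.

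**Figure D1:**
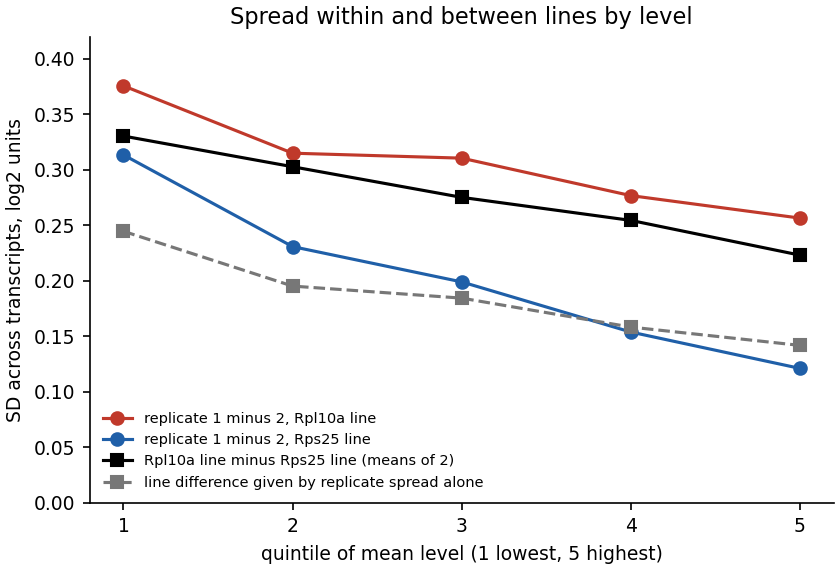
The y axis is the SD across transcripts in log2 units and the x axis the quintile of mean level, from the lowest to the highest. Circles are differences between the 2 replicates of a line, black squares the difference between line means, and grey squares the value that replicate spread alone would give; the black line lies above the grey one in every quintile.

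In a limma fit of the 4 libraries, 32 of 8090 transcripts differed between the lines (adjusted p below 0.05), which is 0.396% of those tested. They divided evenly, with 16 higher in the Rpl10a line (0.198%) and 16 lower (0.198%). The median difference was 1.15 among the higher ones and −1.32 among the lower ones, and 26 of the 32 were more than 2-fold apart. The calls were spread over the range of levels, with 3, 4, 2, 3 and 4 higher ones and 2, 3, 4, 5 and 2 lower ones from the lowest to the highest of the 5 bins. Their line means ran from 2.0 to 400 RPKM, and 0 of the 32 were among the 100 most footprinted transcripts of either line. Before adjustment 1216 transcripts (15.0%) had p below 0.05, with 723 higher in the Rpl10a line, where 404.5 would be reached with no difference at all.

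The libraries of the lines did not overlap for all 32 called transcripts, a condition also met by 47.4% of all transcripts. The labels do not say that replicates came from separate cultures, and the p-values then measure only the spread between these samples. With any 1 of the 4 libraries left out, limma called 0 transcripts, although 345 to 2246 had an unadjusted p below 0.05. All 32 kept their direction in each of these 4 fits. The lack of overlap between the lines fixed that in advance, so nothing is read from it. A test against a 1.5-fold difference called 0, with 64 at an unadjusted p below 0.05.

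**Figure D2:**
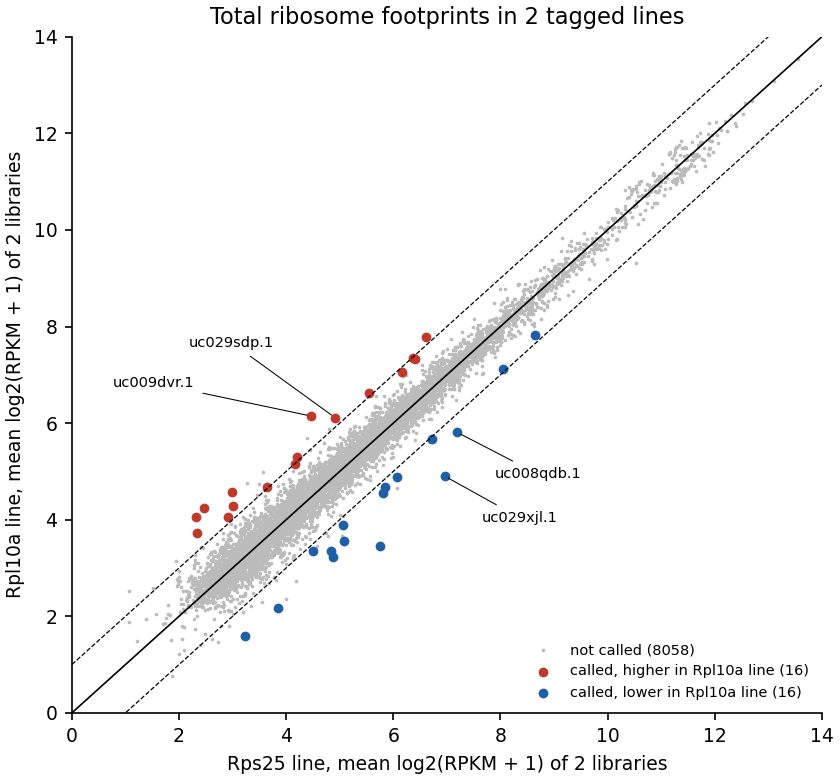
Each point is 1 of 8090 transcripts, with the mean log2(RPKM + 1) of the 2 Rps25 libraries on the x axis and of the 2 Rpl10a libraries on the y axis. The solid line marks equal levels and the dashed lines a 2-fold difference; the 16 called higher and 16 called lower transcripts lie below the most abundant ones.

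Among calls not below the median level, uc009dvr.1 had the largest excess in the Rpl10a line. Below that level, uc012bzx.1 and uc007fhi.1 had larger differences, 1.78 and 1.74. uc009dvr.1 stood at 67.6 and 72.1 RPKM in the Rpl10a libraries and at 21.0 and 21.1 RPKM in the Rps25 libraries. The replicates of each line lay close together, with line means of 69.9 ± 3.18 and 21.1 ± 0.0707 RPKM (SD, n = 2 each; difference on the log2(RPKM + 1) scale 1.68, SE 0.11, limma adjusted p = 0.0192). Next came uc029sdp.1, with 59.3 and 78.7 RPKM in the Rpl10a line and 29.4 and 28.7 RPKM in the Rps25 line. Both Rpl10a values were above both Rps25 values by a factor of at least 2 (log2 difference 1.21, SE 0.16, limma adjusted p = 0.0386). Neither transcript is listed in the table of the Rpl22 line.

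Among calls not below the median level, uc029xjl.1 had the largest excess in the Rps25 line; 1 call below that level differed more, by −2.31. uc029xjl.1 had 31.6 and 26.4 RPKM in the Rpl10a libraries against 109.6 and 138.9 RPKM in the Rps25 libraries (log2 difference −2.06, SE 0.16, limma adjusted p = 0.0192). For uc008qdb.1 the Rpl10a libraries gave 49.3 and 61.5 RPKM and the Rps25 libraries 155.7 and 135.2 RPKM (log2 difference −1.38, SE 0.14, limma adjusted p = 0.0256). No overlap between the lines was a condition for naming a transcript, so nothing is read from it.

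Leaving out the first Rpl10a library changed these 4 differences little: they became 1.73 for uc009dvr.1, 1.41 for uc029sdp.1, −2.18 for uc029xjl.1 and −1.22 for uc008qdb.1. Without the second Rpl10a library they were 1.64, 1.00, −1.93 and −1.54. Each of the 4 then missed the threshold, as every transcript did with 3 libraries (limma adjusted p = 0.308 and 0.119 for all 4).

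**Figure D3:**
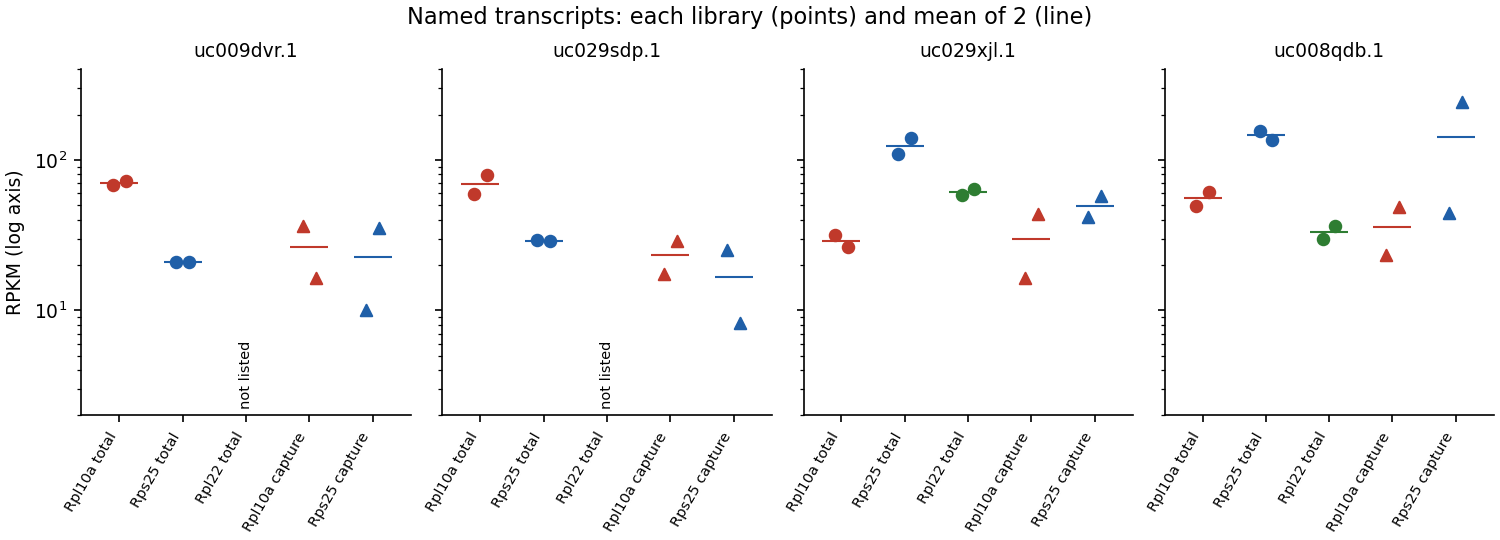
Each panel is 1 transcript, with RPKM on a log y axis and the line and kind of library on the x axis; points are single libraries and horizontal bars the mean of 2. Total libraries (circles) separate by line in all 4 panels, which the choice of these transcripts required. Captured libraries (triangles) overlap in uc009dvr.1, uc029sdp.1, uc029xjl.1 and uc008qdb.1.

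The libraries of captured ribosomes allowed the same line difference to be read in samples whose values did not enter the total fit. In each line these ribosomes were pulled from the lysate with anti-FLAG beads, so here the captured protein changed together with the line. Of the 32 transcripts called in total footprints, 30 differed in the same direction after capture, 15 of 16 among the higher and 15 of 16 among the lower ones. Over all 8090 transcripts the share was 59.2%. The median captured difference was 0.58 for the higher and −0.89 for the lower ones. It was 0.07 for all transcripts with a total difference above 0 and −0.07 for all below 0. The median ratio of captured to total difference was 0.51 for the 32 and 0.35 for all transcripts. The captured difference was the larger one in 1 of the 16 higher and 6 of the 16 lower transcripts, and in 2781 of all 8090. The 32 were called for their total difference, so nothing is read from its being mostly the larger one. Captured values may also have helped to decide which transcripts were listed. Each listed transcript reached at least 5.1 RPKM in a total or captured library of its line. Some called ones reached it in 1 line only through capture, among them uc007fhi.1, uc011ztw.1 and uc007krg.2. Of these, uc011ztw.1 and uc007krg.2 reversed direction after capture.

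Fewer of them reached the size or the separation seen in total footprints. In captured libraries 11 of the 32 were more than 2-fold apart in the same direction, against 109 of all 8090 (1.35%). The libraries of the lines did not overlap, in the same direction, for 19 of the 32 and for 27.0% of all transcripts. Most of all 8090 had small total differences, so a nearer comparison is with large differences that were not called. Of the 30 transcripts more than 2-fold apart in total footprints but not called, 7 were so after capture and 14 did not overlap, in the same direction. A limma fit of the 4 captured libraries called 1 transcript of 8090 (0.0124%), which was none of the 32, with 824 at an unadjusted p below 0.05. The median SE of the line difference was 0.231 in captured and 0.147 in total libraries. That 1 transcript, uc008bqp.2, had 5204 and 4992 RPKM in the RPL10A capture and 2498 and 2330 RPKM in the RPS25 capture (log2 difference 1.08, SE 0.10, limma adjusted p = 0.0226). Its total footprints showed no such gap, with 2171 and 1983 RPKM in the Rpl10a line and 2287 and 2431 RPKM in the Rps25 line (log2 difference −0.18, limma adjusted p = 0.424).

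**Figure D4:**
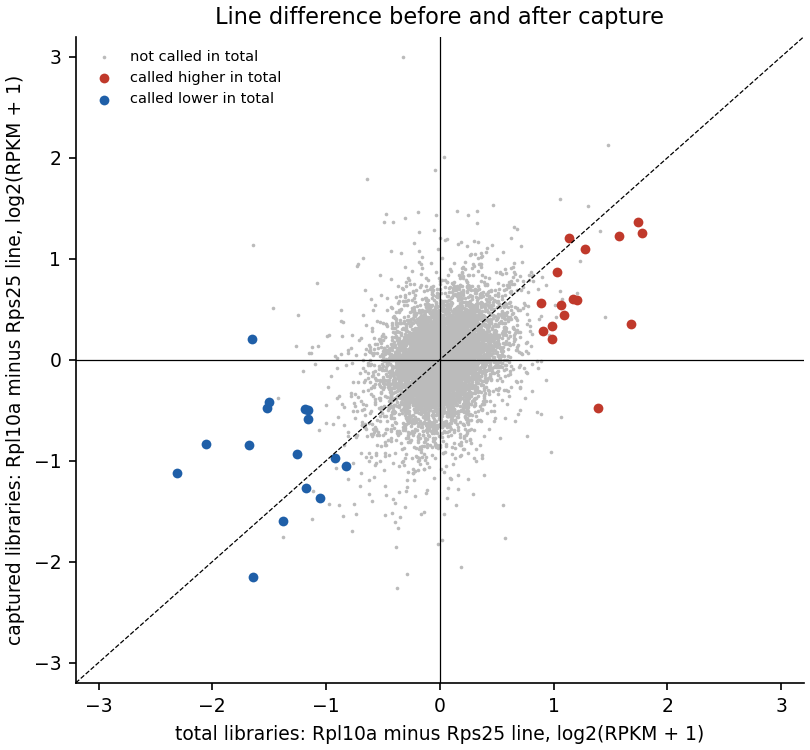
The x axis is the line difference in total libraries and the y axis that in captured libraries, both in log2(RPKM + 1), with 1 point per transcript and a dashed line where they are equal. Of the called transcripts, 30 of 32 lie at the upper right or lower left of the origin, most of them nearer to 0 in captured than in total libraries.

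The captured values of all 4 named transcripts overlapped between the lines. For uc009dvr.1 the captured values were 36.2 and 16.4 RPKM in the Rpl10a line and 10 and 35.0 RPKM in the Rps25 line, which overlap. uc029sdp.1 also overlapped, with 17.4 and 28.9 RPKM against 25.2 and 8.2 RPKM. For uc029xjl.1 the captured values were 16.5 and 43.4 RPKM in the Rpl10a line and 41.5 and 57.4 RPKM in the Rps25 line. uc008qdb.1 had 23.3 and 48.8 RPKM against 44.5 and 241.1 RPKM, so that a single RPS25 capture library carried most of its mean. Tested as a difference of differences in a fit of the 8 libraries, the line difference of captured and total footprints passed the test as unequal in 0 of the 32 transcripts (limma adjusted p below 0.05), and 1 of all 8090 was called (0.0124%). At an unadjusted p below 0.05 there were 9 of the 32 and 583 of all 8090, but the 32 were called on the total difference, which is a term of this contrast, so nothing is read from their share.

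Over all transcripts, agreement in direction after capture grew with the size of the total difference. Among those more than 2-fold apart but not called, it held for 20 of 30 (66.7%). Transcripts whose total difference was below 0.1 had the same sign in captured libraries in 51.2% of 2702 cases, those from 0.1 to 0.25 in 58.9%, those from 0.25 to 0.5 in 66.9%, those from 0.5 to 1 in 73.6% and those above 1 in 78.6% of 56. Across the 8090 transcripts the total and captured differences correlated with r = 0.32 (Spearman rho 0.29), and single libraries of each kind gave r between 0.109 and 0.347. These values are across transcripts, which share their libraries and are not independent replicates. Without the first Rpl10a total library r was 0.374 and without the second 0.214. The 30 of the 32 with the same direction could not change in these cases, as their total values did not overlap between the lines. The labels do not say whether a captured and a total library came from 1 lysate. Deviations between replicates gave no such link by number, as replicate 1 minus 2 in total and captured libraries correlated with r = −0.01 in the Rpl10a line and 0.01 in the Rps25 line.

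**Figure D5:**
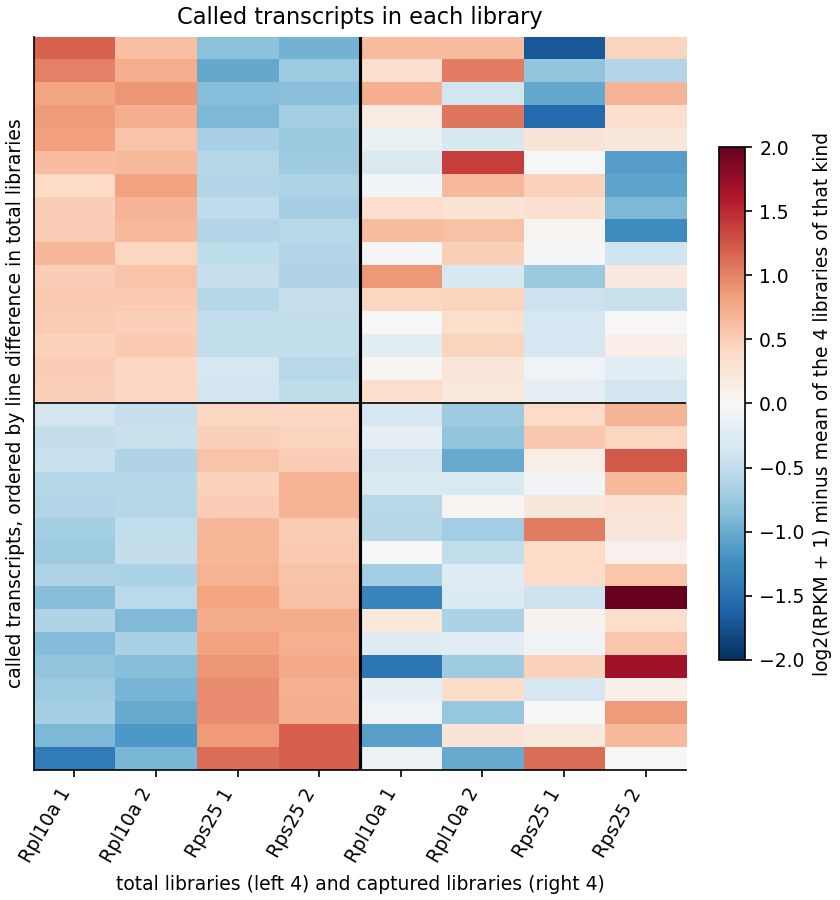
Rows are the 32 called transcripts in order of their line difference in total libraries, and columns are the 4 total and 4 captured libraries; colour is log2(RPKM + 1) minus the mean of the 4 libraries of that kind. The total columns divide into 16 higher and 16 lower rows. In the captured columns 30 of the 32 rows differ in the same direction on average, with more scatter between replicates. The captured libraries of the lines separate in that direction in 19 rows.

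A further E14 line, with 1 allele of Rpl22-3xHA, gave another reading of the same transcripts. Its total libraries differed in lysis buffer (no heparin) and in processing (STAR named in addition), and their labels name an anti-HA antibody although the titles call them total, so levels are set side by side with no test. Of the 32 called transcripts, 24 are listed there, against 7605 of all 8090. In 8 of the 24 the Rpl22 line lay between the FLAG lines, in 7 it lay beyond the Rps25 line and in 9 beyond the Rpl10a line. Over all 7605 the counts were 1022 between (13.4%), 3607 beyond the Rps25 line and 2976 beyond the Rpl10a line. Among the 14 that were lower in the Rpl10a line than in the Rps25 line, the Rpl22 line was nearer to the Rpl10a line in 10, against 1697 of 3584 for all transcripts with a difference below 0. Among the 10 that were higher in the Rpl10a line, it was nearer to the Rps25 line in 6, close to the 56.3% of all transcripts with a difference above 0. uc029xjl.1 had 58.8 and 63.9 RPKM in the Rpl22 line, between the FLAG lines, and uc008qdb.1 had 30.0 and 36.5 RPKM, below both.

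In wild-type E14 cells given a control siRNA, RNA-seq had been made of heavy polysome fractions and of light fractions. Of the called transcripts, 29 of 32 are in those tables, and 19 of the 29 were higher in heavy fractions, against 3765 of 7704 for all transcripts. The median of heavy minus light was 0.18 for the higher and 0.17 for the lower ones on the log2(value + 1) scale, and −0.02 for all. The range was wide, from −2.19 to 1.99, so the called transcripts had no common place in the gradient. uc029xjl.1 was at the upper end, with 51.1 and 87.2 in heavy and 11 and 23.4 in light fractions, in the deposited RPM values.

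A pair of transcripts fixed for their values in the capture comparisons of the series also have values here. uc007hnk.2 had 429.5 and 951.0 RPKM in the Rpl10a line and 1970.0 and 1101.6 RPKM in the Rps25 line. Its replicates differed by almost as much as the lines (log2 difference −1.20, SE 0.40, limma adjusted p = 0.253), and without the first Rpl10a library the difference was −0.63. It stood far higher in the Rpl22 line, at 15356 and 15951 RPKM. uc009vfb.1 had 606.7 and 640.3 RPKM in the Rpl10a line and 600.4 and 517.2 RPKM in the Rps25 line, which did not pass the test (log2 difference 0.16, SE 0.11, limma adjusted p = 0.514).

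Transcripts listed for 1 line only fell outside the tests. There were 415 in the Rpl10a line, 4.88% of its list, and 689 in the Rps25 line, 7.85% of its list. The highest value over a line's total and captured libraries was at least 5.1 RPKM for each listed transcript, and the sources used here do not give the rule for listing. Most were low: 331 of the 415 and 377 of the 689 had a mean below 10 RPKM in total libraries, with medians of 5.30 and 8.05 RPKM against 26.2 and 25.4 RPKM for the shared transcripts. Some were not. In the Rps25 line 67 of them exceeded 100 RPKM and together with the rest held 3.28% of its summed RPKM, while in the Rpl10a line 12 did, with 0.522% of the sum. The most footprinted one, uc007joh.1 (named after its values were seen), had 2937 and 2752 RPKM in the Rps25 line and 2870 RPKM in the first Rpl22 library, and is not listed in the Rpl10a table used here. Of those listed in the Rps25 line only, 444 of 689 are also listed in the Rpl22 line, and of those in the Rpl10a line only, 235 of 415. Such transcripts give no line difference, and a value of 0 was not assumed for them.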

How the data were processed

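Per the file headers, the authors deposited 1 RPKM value per UCSC transcript and Ribo-Seq library. Control siRNA RNA-seq values, headed RPM but summing to more than that unit allows, were treated as a scaled signal as deposited. Per the submitters' processing notes, the tools were cutadapt and Bowtie2, plus STAR for RNA-seq and the Rpl22 line, with build mm10. The sources used here do not give how reads were counted or filtered. The 4 total libraries were fitted with limma 3.58.1 in R 4.3.3 on log2(RPKM + 1), a scale that understates changes of low transcripts, with a variance trend and line as the only term. Tests were two-sided, with Benjamini-Hochberg adjustment over 8090 transcripts and calls below 0.05. The fit was tested on simulated data with 1 SD of noise per line. Replicate spread in the real data fell with level, so the simulation did not test the variance trend. Named transcripts were the 2 called ones per direction with the largest difference, no overlap between lines and a mean level not below the median, plus uc007hnk.2 and uc009vfb.1. Members, lists and tests were chosen with earlier results of these data known. Gene lists and sequences were not used here, as identifiers matched no gene name. Replicates shared at most 1.47% identical values. The Rpl10a siRNA libraries were not used here.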

Additional observations from a re-analysis of the deposited data

How the results depend on the processing

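The number of calls in total footprints, 32 as reported, stayed between 31 and 42 under other pseudocounts, a filter at 10 RPKM, other scalings and no variance trend. The members changed in part. The filter left 28 of the 32 to be tested, and all 28 were called. Quantile normalization kept 31 of the 32. Without a variance trend 26 of the 32 were kept, and the 31 calls were 13 higher and 18 lower. When all 12 Ribo-Seq libraries were fitted together, 30 of the 7605 transcripts common to the 3 lines were called, and these held 15 of the 24 calls tested there. A fit of the 6 total libraries called 75 of the 7605, including all 24. On those transcripts the 4 libraries alone called 23. A test against a 1.5-fold difference called 0, and leaving out single libraries gave 0 to 0; that leaves a line with 1 library, assumed to vary like the other line. With the replicate number as a block, 107 were called, 54 higher and 53 lower, and all 32 were among them. The labels give numbers no shared culture or date, and same-numbered deviations of the lines correlated with r = −0.26, so the numbers were not taken to pair samples. The crossed pairing, added after seeing the data, called 412, 248 higher and 164 lower. In captured libraries the 1 call became 2 with the replicate block and 0 under quantile normalization, no variance trend, the 1.5-fold test and with any single library left out (0 to 0). The SD of the line difference was 0.228 to 0.280 under another pseudocount, filter or scaling, and 0.279 to 0.357 without single libraries. Without single captured libraries, added after seeing the data, 28 to 29 of the 32 kept their direction after capture. Without single total libraries it was 30, a count that could not change. The 4 called transcripts that are named kept their direction in every alternative run that included them. uc009dvr.1 and uc029sdp.1 were not among the 7605 transcripts common to the 3 lines. Many runs left the difference as it was, or could not reverse it because the lines did not overlap. Apart from the 1.5-fold test and single libraries left out, which ended all 4 calls, uc029sdp.1 was not called without a variance trend, uc008qdb.1 was not called in the fit of 12 libraries (limma adjusted p = 0.321), and uc007hnk.2 was called with the replicate block and with the crossed pairing. Depth is unknown and 2 libraries per line limit the precision.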
